A study of Mus musculus with 6 samples.

Results

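Mitochondria carry their own small genome (mtDNA), which is transcribed, processed and degraded by proteins that are encoded in the nucleus. The 10 nuclear genes described here are Tfam, Tfb2m, Polrmt, Tefm, Tfb1m, Lrpprc, Slirp, Supv3l1, Pnpt1 and Rexo2. They were taken by gene symbol from a table of 54532 genes, and each symbol matched 1 row. The matching used names alone, but the set was drawn up with earlier results of these data known. RNA sequencing had been run on mouse vascular smooth muscle cells (VSMCs) in 6 libraries. In the arterial wall such cells are the contractile ones. All cells had received an adenoviral vector, with a control plasmid in 3 libraries (Ad-Con, genotype label WT) and a plasmid for overexpression of pyruvate dehydrogenase kinase 4, PDK4, in the other 3 (Ad-PDK4). The study's text adds that the cells (MASMCs in its terms) came from mouse abdominal aorta and were passaged in culture, that both groups were afterwards given angiotensin II (Ang II), and that the 3 libraries of a group were biological replicates. Ang II is not in the labels, and no library from untreated cells was used here, so every comparison below is between vectors in Ang II-treated cells.

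In the mitochondrion, TFAM binds and bends the promoters of mtDNA, TFB2M opens them, POLRMT is the RNA polymerase and TEFM keeps it moving. The long transcripts are cut apart, TFB1M methylates the small ribosomal RNA, and LRPPRC with its partner SLIRP binds and stabilises the mRNAs. The helicase SUPV3L1 and the exoribonuclease PNPT1 (PNPase) form the complex that degrades mitochondrial RNA, double-stranded RNA included, and REXO2 digests the short fragments that remain.

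The recovered totals were 17588942 to 21861872 reads per library, and the 10 genes had between 15 and 2374 reads each in any 1 library. Pdk4 itself, which checks the labels, had 9.50, 10.4 and 10.2 FPKM in Ad-Con replicates 1 to 3 and 7.67, 7.41 and 7.38 FPKM in Ad-PDK4 replicates 1 to 3. It was lower in the libraries labelled Ad-PDK4 (log2 fold change -0.42, SE 0.06, limma adjusted p = 0.0011), so the overexpression was not seen at the mouse gene, and Ad-Con and Ad-PDK4 stand for what the libraries are labelled. Whether transcripts of the vector are counted in this row could not be seen from the table, and each direction below holds only as far as the labels do. FPKM are counted fragments scaled by gene length and library size. Of 10 smooth muscle markers, 4 had at least 1 FPKM in every library. Acta2, the actin of smooth muscle, went from 78.0 ± 0.95 to 36.2 ± 2.40 FPKM (mean ± SD, n = 3). Tpm2 went from 27.8 ± 0.996 to 22.1 ± 1.59 FPKM. Cald1, which binds actin and calmodulin, went the other way, from 56.0 ± 0.646 to 71.9 ± 2.82 FPKM, and Smtn had 8.32 ± 0.114 and 8.44 ± 0.445 FPKM. The other markers were below 1 FPKM in every library. Of them Mylk (0.756 to 0.123), Des (0.186 to 0.0468), Cnn1 (0.466 to 0.247) and Lmod1 (0.720 to 0.570) had lower means under Ad-PDK4. Tagln had means of 0.341 and 0.292 FPKM, and Myh11, the smooth muscle myosin, was at or below 0.0723 FPKM everywhere. VSMC is thus the name given to these cells, in which most of the 10 smooth muscle markers were below 1 FPKM. The summed level of these 10 markers was 172.2 to 173 FPKM under Ad-Con and 134.5 to 144.7 under Ad-PDK4, and that of 7 fibroblast markers, 6 of them at 1 FPKM or more in every library, was 1430 to 1555 and 738 to 805.5. The macrophage sum was 14.97 to 17.94 and 5.912 to 7.445 FPKM, with 4 of 8 markers (Ptprc, C1qa, C1qb and Tyrobp) at 0 in all libraries. These 3 sums moved with the label, but not every member moved in the direction of its sum. Among the fibroblast genes Col1a1 went from 1055 ± 42.4 to 434.8 ± 49.6 FPKM. Col3a1 (134.2 to 73.85), Dpt (191.5 to 74.12), Lum (7.465 to 3.31) and Pi16 (0.2055 to 0.02315) had lower means under Ad-PDK4 as well. Dcn alone rose, from 90.1 ± 8.20 to 160.6 ± 19.0, and Pdgfra was at 20.49 ± 0.729 and 19.9 ± 0.804. Of the macrophage genes Cd68 went from 14.2 ± 1.78 to 4.24 ± 0.991 FPKM, whereas Csf1r went from 0.258 ± 0.143 to 0.640 ± 0.0804 and Lyz2 from 1.51 ± 0.195 to 1.98 ± 0.250. The 7 endothelial markers, 2 of them at 0 throughout, had a low sum that moved as well. It was 0.6171 to 0.7985 FPKM under Ad-Con and 0.8847 to 1.178 under Ad-PDK4. Kdr rose from 0.536 to 0.919, whereas Pecam1 (0.101 to 0.0651) and Vwf (0.0585 to 0.0327) had lower means. Cdh5 and Tek were at or below 0.0523 FPKM in every library. The part of these shifts in the results below was not tested. In bulk RNA, fewer cells of a type and less RNA per cell cannot be told apart.

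Before any difference between vectors, the sequences upstream of the genes with the largest rise and the largest fall are shown, because both genes are followed closely below. They are the bases that end just before the RefSeq transcription start and lie in no annotated exon, on GRCm38.p6, written 5′ to 3′ on the strand of the gene. Capitals mark matches to the motifs that were searched on both strands.
Pnpt1 upstream, chr11:29130494-29130743, plus strand: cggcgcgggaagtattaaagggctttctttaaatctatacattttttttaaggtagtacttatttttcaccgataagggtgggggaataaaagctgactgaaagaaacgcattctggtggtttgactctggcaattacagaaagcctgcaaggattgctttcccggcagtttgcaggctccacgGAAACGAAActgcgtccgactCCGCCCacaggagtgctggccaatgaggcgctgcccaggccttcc
Tfb2m upstream, chr1:179546277-179546369, minus strand: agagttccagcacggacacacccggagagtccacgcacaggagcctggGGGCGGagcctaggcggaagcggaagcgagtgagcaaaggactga

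All 10 genes had a RefSeq promoter window of 250 bases before and 50 after the start, and so did 32851 entries in all. The motif of NRF1, a nuclear regulator of genes for mitochondrial proteins, was searched as GCGCATGC. It stood in the windows of Tfb2m and Polrmt and in 2.71% of all windows. The ETS-type motif bound by GABP, CCGGAAG, stood in those of Tfam, Polrmt, Tefm and Slirp and in 8.86% of all. A match to the YY1 motif AAGATGGC was present for Slirp alone among the 10 (2.75% of all), the E-box CACGTG for Rexo2 alone (7.15%), and the GC box GGGCGG for Tfam, Tfb2m, Tfb1m, Lrpprc and Pnpt1 (35.7%). No window of the 10 held the interferon-response core GAAANNGAA, which 8.56% of all windows hold. The Pnpt1 window held a GAAA repeat with 1 base between, GAAANGAAA, 66 bases before the start. That form was chosen after the sequence had been read, and 3.17% of all windows hold it. Supv3l1 matched none of these motifs. The NRF1 and ETS sites of Tfb2m, Polrmt, Tfam and Tefm, which act in transcription, and the E-box of Rexo2 are shown with up to 10 bases on either side, apart from the ETS site of Polrmt, which is on the opposite strand 43 bases before the start.
Tfb2m, NRF1 motif on the opposite strand, 14 bases after the start, chr1:179546246-179546273: taggtcgttcGCATGCGCcattcgtaat
Polrmt, NRF1 motif, 133 bases before the start, chr10:79746697-79746724: gagtatttctGCGCATGCtctcttgccg
Tfam, ETS motif, 47 bases before the start, chr10:71238075-71238101: ctgccgcggaCCGGAAGtccgggcttc
Tefm, ETS motif, 9 bases before the start, chr11:80142146-80142172: gcacacgaaaCCGGAAGttgaggagga
Rexo2, E-box, 163 bases before the start, chr9:48480759-48480784: catccgaaaaCACGTGgcgggggagg
Such matches describe the letters of the window and do not show that a factor binds there. In 4 of these windows (Tefm, Tfb1m, Lrpprc and Rexo2) between 3 and 26 of the upstream bases lie inside a longer annotated exon of the same gene, and for Tfam 236 do. Exons of other genes reach into the upstream part for Tfb2m (Cnst), Tfb1m (1700102H20Rik), Slirp (Alkbh1) and Supv3l1 (4930507D05Rik).

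All 10 genes had a mean of at least 0.5 FPKM and were tested among 13423 genes, with limma on log2(FPKM + 0.1) and Benjamini-Hochberg adjustment over all of them. At an adjusted p below 0.05, Pnpt1, Tefm and Rexo2 were higher under Ad-PDK4, Tfb2m and Lrpprc were lower, and Tfam, Polrmt, Tfb1m, Slirp and Supv3l1 did not pass. That is 3 higher and 2 lower of 10, where 21.8% of all tested genes were higher and 20.8% lower (42.7% in either direction). The 3 values of each group did not overlap for 5 of the 10 genes, which were the same 5, and for 54.3% of all tested genes. None of the 10 changed by 2-fold or more, as 6.63% of tested genes did at an adjusted p below 0.05. The median log2 fold change was 0.21 for the 10 genes and -0.003 for all tested genes. The shares called thus lay near those of the whole table, and the genes moved in both directions.

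**Figure D1:**
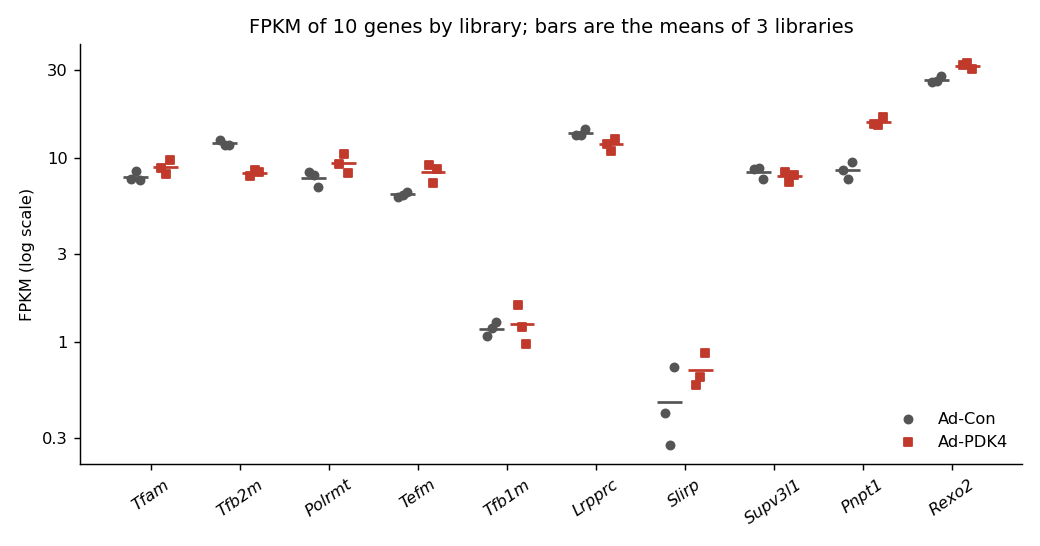
FPKM of the 10 genes on a log scale, with 1 point per library (grey circles Ad-Con, red squares Ad-PDK4) and a bar at the mean of 3 libraries. The groups are apart for Tfb2m, Tefm, Lrpprc, Pnpt1 and Rexo2 and overlap for the other 5 genes.

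**Figure D2:**
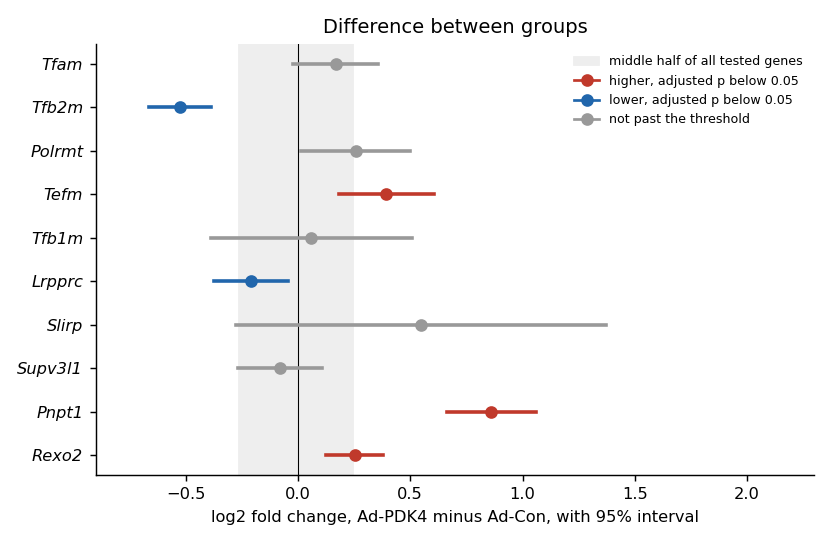
Log2 fold change of each gene on the log2(FPKM + 0.1) scale, Ad-PDK4 minus Ad-Con, with its 95% interval from limma. The grey band is the range between the quartiles of all 13423 tested genes, -0.26 to 0.24, and Pnpt1 (0.86) and Tfb2m (-0.53) lie outside it with their whole intervals.

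Of the genes that start transcription, Tfb2m changed most. Tfb2m (ENSMUSG00000026492, chromosome 1, 179528055 to 179546267, minus strand) had 12.5, 11.7 and 11.8 FPKM under Ad-Con and 7.92, 8.54 and 8.40 under Ad-PDK4. All 3 Ad-PDK4 libraries were below all Ad-Con libraries, with means of 11.97 ± 0.43 and 8.28 ± 0.325 FPKM (SD, n = 3). The log2 fold change was -0.53 (SE 0.06, adjusted p = 3.1e-04), the mean FPKM decreased by 30.8%, and 11.7% of tested genes had a larger fall. A limit comes from the sequence: 39.6% of the 50-base words in Tfb2m exons also occur in the transcript of the pseudogene Gm1818, so reads could pass between the 2 rows. Gm1818 had 76 to 93 reads per Ad-Con library and 80, 26 and 78 in Ad-PDK4 replicates 1 to 3, against 574 to 711 and 404 to 520 for Tfb2m. Its log2 fold change was -0.62 (SE 0.38, adjusted p = 0.25). The fall of Tfb2m was past the threshold under all 17 alternatives, from -0.59 to -0.48.

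Tfam, the packaging and promoter-bending protein of mtDNA (ENSMUSG00000003923, chromosome 10, 71225464 to 71238280, minus strand), had 7.68, 8.47 and 7.53 FPKM under Ad-Con. Under Ad-PDK4 it had 8.75, 8.20 and 9.71 FPKM. The groups overlapped, since the second library of Ad-Con was above the second of Ad-PDK4. A log2 fold change of 0.17 was found, with a 95% interval of -0.02 to 0.36 (adjusted p = 0.14), so these libraries did not separate the groups, and the interval holds rises of up to 0.36 but no fall beyond 0.02. Without Ad-PDK4 replicate 3 the value was 0.10.

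Polrmt, the polymerase itself (ENSMUSG00000020329, chromosome 10, 79736123 to 79746581, minus strand), had 8.32, 8.04 and 6.97 FPKM under Ad-Con and 9.25, 10.5 and 8.23 under Ad-PDK4. Ad-PDK4 replicate 3 lay within the range of Ad-Con. The log2 fold change was 0.26 (95% interval 0.02 to 0.50, adjusted p = 0.083). Without Ad-PDK4 replicate 3 it was 0.34 with an adjusted p of 0.034, and with limma-voom on the recovered reads it was 0.25 with an adjusted p of 0.039, so the outcome for Polrmt depended on that library and on the test. The value was 0.17 without Ad-PDK4 replicate 2 (adjusted p = 0.21) and 0.18 without Ad-Con replicate 3 (adjusted p = 0.24).

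Tefm, the elongation factor (ENSMUSG00000046909, chromosome 11, 80136678 to 80142175, minus strand), was the gene of transcription that rose. It had 6.13, 6.31 and 6.53 FPKM under Ad-Con and 9.14, 7.28 and 8.74 under Ad-PDK4. Every Ad-PDK4 library was above every Ad-Con library, although the Ad-PDK4 values spread more widely (coefficient of variation 11.7% against 3.18%). The log2 fold change was 0.39 (SE 0.09, adjusted p = 0.01), and it stayed past the threshold under 17 alternatives, from 0.33 to 0.49.

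Among the genes whose proteins act on the transcripts, Tfb1m and Slirp had the lowest FPKM of the 10 genes. Lrpprc was among the 3 highest in both groups. Tfb1m, the methyltransferase of the small ribosomal RNA (ENSMUSG00000036983, chromosome 17, 3519256 to 3557781, minus strand), had 1.08, 1.18 and 1.28 FPKM under Ad-Con and 1.58, 1.203 and 0.978 under Ad-PDK4. The Ad-PDK4 values lay on both sides of the Ad-Con range, at 75 to 104 reads per library. Its log2 fold change of 0.06 (95% interval -0.39 to 0.51, adjusted p = 0.83) became -0.11 without Ad-PDK4 replicate 1 and -0.0002 without Ad-Con replicate 1. No direction can be read from these values.

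Lrpprc, the mRNA-binding protein (ENSMUSG00000024120, chromosome 17, 84705247 to 84790789, minus strand), had 13.3, 13.2 and 14.4 FPKM under Ad-Con and 11.9, 10.9 and 12.6 under Ad-PDK4. The groups did not overlap, and the mean FPKM decreased by 13.4%. The log2 fold change was -0.21 (SE 0.07, adjusted p = 0.0476), just inside the threshold. It stayed negative under 17 alternatives (-0.27 to -0.15) and was not past the threshold under 8 of them. Leaving out any 1 of the 3 Ad-Con libraries gave log2 fold changes of -0.23, -0.23 and -0.17 (replicates 1, 2 and 3) with adjusted p-values of 0.084, 0.074 and 0.15. Leaving out Ad-PDK4 replicate 1 or 2 gave -0.22 and -0.15, with adjusted p-values of 0.1 and 0.11.

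Slirp, the partner of LRPPRC (ENSMUSG00000021040, chromosome 12, 87443896 to 87452206, plus strand), had 0.412, 0.275 and 0.729 FPKM under Ad-Con and 0.584, 0.644 and 0.875 under Ad-PDK4. Ad-Con replicate 3 was above 2 of the Ad-PDK4 libraries, so the groups overlapped. These values rested on 15 to 60 reads per library, and the log2 fold change was 0.55 (95% interval -0.28 to 1.37, adjusted p = 0.25). It was 0.28 without Ad-Con replicate 2, 0.85 without Ad-Con replicate 3 and 0.22 with a pseudocount of 1. The levels are uncertain for another reason. Of the exonic bases counted for Slirp, 97.8% are also exonic in the antisense genes Snw1 (2914 bases) and Alkbh1 (122 bases), and without a stated strand setting reads of these genes cannot be told apart. Snw1 had a log2 fold change of 0.34 (SE 0.06, adjusted p = 0.0036) and Alkbh1 one of 0.61 (SE 0.12, adjusted p = 0.004). The length used for Slirp, 3104 bases, exceeds its shortest transcript of 335 bases, and a longer divisor gives a lower FPKM.

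The decay genes diverged. Pnpt1, the exoribonuclease (ENSMUSG00000020464, chromosome 11, 29130744 to 29161828, plus strand), had 8.58, 7.65 and 9.43 FPKM under Ad-Con and 15.2, 14.97 and 16.6 under Ad-PDK4. The lowest Ad-PDK4 library was well above the highest Ad-Con library, and the means were 8.55 ± 0.892 and 15.6 ± 0.865 FPKM (SD, n = 3). The rise was the largest called among the 10 genes, with a log2 fold change of 0.86 (SE 0.09, 95% interval 0.66 to 1.06, adjusted p = 1.5e-04), a ratio of 1.82. Of all tested genes 5.71% had a larger rise. No exon of Pnpt1 overlaps another gene and none of its 50-base words occurs in one. The rise was past the threshold under 17 alternatives, from 0.78 to 0.93.

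Supv3l1, the helicase that feeds RNA to PNPT1 (ENSMUSG00000020079, chromosome 10, 62429209 to 62449738, minus strand), had 8.74, 8.80 and 7.65 FPKM under Ad-Con and 8.35, 7.35 and 8.08 under Ad-PDK4. The groups overlapped, and the log2 fold change was -0.08 with a 95% interval of -0.27 to 0.11 (adjusted p = 0.45). A rise of the size of that of Pnpt1 lies outside this interval. With 1 library left out the value ran from -0.15 (without Ad-Con replicate 3) to -0.03 (without Ad-PDK4 replicate 2). Of its exonic bases, 8.42% are shared with the opposite-strand gene 4930507D05Rik.

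Rexo2, the oligoribonuclease (ENSMUSG00000032026, chromosome 9, 48468512 to 48480623, minus strand), was the most abundant of the 10. It had 25.6, 26.2 and 27.8 FPKM under Ad-Con and 31.9, 32.6 and 30.3 under Ad-PDK4, with no overlap. The rise was small but its spread was smaller, with a log2 fold change of 0.25 (SE 0.06, adjusted p = 0.0074) and coefficients of variation of 4.16% and 3.79%. It was past the threshold under all 17 alternatives, from 0.20 to 0.29.

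These changes altered the order of the levels. Under Ad-Con the means ran from Rexo2 (26.5 FPKM) through Lrpprc (13.6) and Tfb2m (11.97), each apart from the next, to Pnpt1 (8.55), Supv3l1 (8.40), Tfam (7.90) and Polrmt (7.77), neighbours whose libraries overlapped. Tefm (6.33), Tfb1m (1.18) and Slirp (0.472) followed, each below the gene before it in all 3 libraries. Under Ad-PDK4, Pnpt1 (15.6 FPKM) stood second, apart from both Rexo2 (31.6) and Lrpprc (11.8). Polrmt (9.33), Tfam (8.89), Tefm (8.38), Tfb2m (8.28) and Supv3l1 (7.93) then followed with overlapping libraries, so Tfb2m had moved from the third place to the seventh. The length behind FPKM is that of all annotated exons of a gene together. It was 8504 bases for Lrpprc and 3385 for Rexo2, against longest single transcripts of 4393 and 1780 bases, so levels of different genes are comparable only in outline.

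Ratios within a library do not depend on its scaling, and 7 pairs were compared by exact two-sided permutation tests over the 6 libraries, in which 0.1 is the smallest p that 3 against 3 allows. The ratio of Pnpt1 to its partner Supv3l1 was 0.982, 0.868 and 1.23 under Ad-Con and 1.82, 2.04 and 2.05 under Ad-PDK4. The mean FPKM ratio of these mRNAs thus went from 1.03 ± 0.186 to 1.97 ± 0.13 (SD, n = 3). This is a log2 difference of 0.95 (exact p = 0.1, adjusted over 7 pairs 0.175), and it does not give the proportions of the proteins in the complex. Pnpt1 to Rexo2 was 0.335, 0.292 and 0.340 and then 0.476, 0.459 and 0.547, a log2 difference of 0.62 with the same exact p.

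For initiation, the ratio of Tfb2m to Polrmt was 1.498, 1.45 and 1.69 under Ad-Con and 0.856, 0.812 and 1.02 under Ad-PDK4, a log2 difference of -0.79 (exact p = 0.1, adjusted p = 0.175). The ratio of the paralogs Tfb2m to Tfb1m was 11.6, 9.85 and 9.18 and then 5.00, 7.10 and 8.58, a log2 difference of -0.59 with the same p, and -0.38 without Ad-PDK4 replicate 1. In both pairs the groups did not overlap. The other 3 pairs did overlap. Polrmt to Tfam differed by 0.09 (exact p = 0.7), and by -0.06 without Ad-PDK4 replicate 2 or 0.24 without Ad-PDK4 replicate 3, so it has no settled sign. Tefm to Polrmt differed by 0.14 (exact p = 0.7), with 0.33 and 0.02 when the same libraries were left out. Lrpprc to Slirp differed by -0.88 (exact p = 0.2, adjusted p = 0.28) and carries the doubt about Slirp. With 3 libraries a group no pair could reach 0.05, so the separations of these 4 pairs are descriptions.

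**Figure D3:**
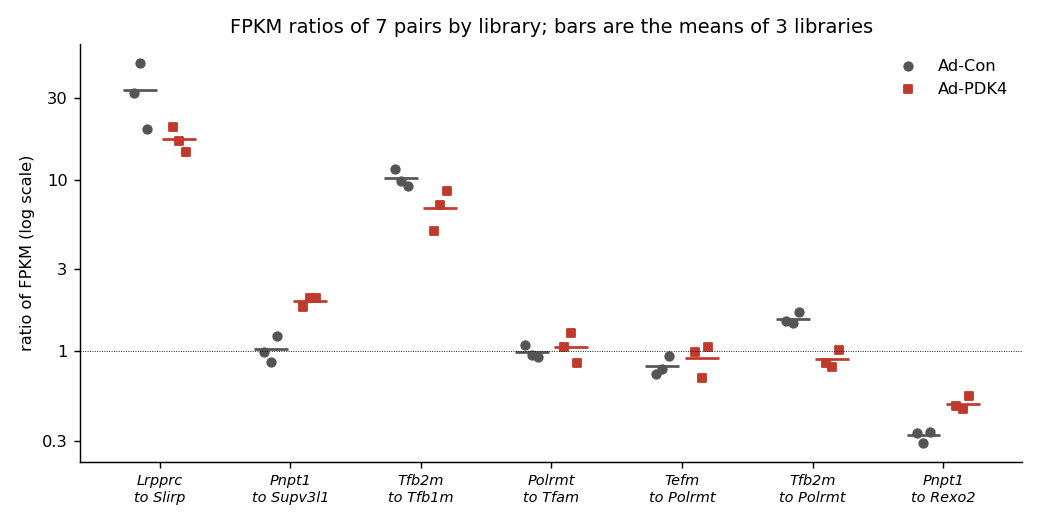
Ratio of FPKM within each library for 7 pairs, on a log scale, with 1 point per library and a bar at the mean of 3 libraries. The groups are apart for Pnpt1 to Supv3l1, Tfb2m to Tfb1m, Tfb2m to Polrmt and Pnpt1 to Rexo2, and overlap for the other 3 pairs.

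The other genes of mitochondrial RNA synthesis, processing and decay were taken from 6 lists. Of 55 such genes 54 were tested, and 15 were higher and 5 lower, which is 37.0% against the 42.7% of all tested genes. Their median log2 fold change was 0.09, and none changed by 2-fold. In transcription, 1 of 6 genes passed: Mterf2, a terminator-family protein, went from 4.94 ± 0.609 to 2.97 ± 0.382 FPKM (log2 fold change -0.72, adjusted p = 0.0025).

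Of 10 tested genes for ribosomal RNA modification and assembly, 3 were higher (30% called, against 42.7% of all tested genes). Mrm3, a methyltransferase of the large ribosomal RNA, rose by 0.89 (adjusted p = 0.02), Mrm2, another one, by 0.27 (adjusted p = 0.015), and Eral1, a chaperone of the small ribosomal RNA, by 0.23 (adjusted p = 0.0495) on the log2 scale. Of 15 genes for tRNA modification, 7 were higher and 1 lower (53.3% called), with a list median of 0.20. Alkbh1, a demethylase and dioxygenase, had 1.59 ± 0.157 and 2.48 ± 0.141 FPKM, and it overlaps Slirp on the opposite strand. Trit1, which adds an isopentenyl group to tRNA, rose by 0.48 (adjusted p = 0.0019) and Yrdc, which makes the threonylcarbamoyl group, by 0.48 (adjusted p = 0.016), while Osgepl1, which transfers that group in mitochondria, fell by 0.37 (adjusted p = 0.045).

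Of 8 genes that cut the primary transcripts or finish tRNA ends, 1 was higher and 1 lower (25% called, against 42.7% of all tested genes). Ptcd2 had a log2 fold change of 0.24 (adjusted p = 0.028) and Elac2, which trims tRNA 3′ ends, one of -0.24 (adjusted p = 0.038). Among 13 genes of mRNA stability, poly(A) tails and RNA granules, 4 were higher and 1 lower (38.5% called). Grsf1, an RNA-binding protein of the granules that works with the degrading complex, fell from 32.3 ± 1.47 to 22.7 ± 0.623 FPKM (log2 fold change -0.51, adjusted p = 2.2e-04). Pde12, which removes poly(A) tails, rose by 0.45 (adjusted p = 0.003), Ddx28, a granule helicase, by 0.30 (adjusted p = 0.032) and Tbrg4 by 0.26 (adjusted p = 0.043). Of the 2 other decay genes, Endog, a mitochondrial nuclease, fell from 7.45 ± 0.295 to 5.25 ± 0.864 FPKM (log2 fold change -0.51, adjusted p = 0.0078), and Lactb2 had a log2 fold change of -0.11 (adjusted p = 0.27). Leaving out 1 library ended the calls of Mrm3, Mrm2, Eral1, Yrdc, Osgepl1, Ptcd2, Elac2, Ddx28 and Tbrg4 in at least 1 case each, with adjusted p-values up to 0.14 over all alternatives. Mterf2, Alkbh1, Trit1, Grsf1, Pde12 and Endog passed under every alternative that could be fitted.

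mtDNA replication, which shares TFAM and POLRMT with transcription, held 15 other tested genes, of which 1 was higher and 1 lower (13.3% called, against 42.7% of all tested genes). Rrm2b, a subunit of the ribonucleotide reductase that supplies nucleotides outside S phase, fell from 4.16 ± 0.0174 to 2.85 ± 0.154 FPKM (log2 fold change -0.53, adjusted p = 0.0012). Atad3a had a log2 fold change of 0.20 (adjusted p = 0.039), which did not pass under 10 of 17 alternatives. Of 10 tested nuclear regulators of mitochondrial gene expression, 4 were higher and 1 lower (50% called). Ppargc1a, the coactivator PGC-1α, fell from 1.66 ± 0.227 to 0.829 ± 0.0905 FPKM (log2 fold change -0.92, adjusted p = 0.003), whereas its relative Pprc1 rose by 0.91 (adjusted p = 1.3e-04), Myc by 0.81 (adjusted p = 1.4e-04) and Creb1 by 0.40 (adjusted p = 0.0068). Nrf1 and Gabpa, whose products bind the NRF1 and ETS motifs shown above, had log2 fold changes of -0.06 (adjusted p = 0.65) and -0.04 (adjusted p = 0.71). Of the genes for other GABP subunits, Gabpb1 was higher, with a log2 fold change of 0.345 (adjusted p = 0.042). Gabpb2 had one of 0.005 (adjusted p = 0.97).

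The RNAs that these proteins make and degrade fell in the same libraries. Of 15 mtDNA-encoded mRNAs and ribosomal RNAs, 12 were lower and none higher (80% called, against 42.7% of all tested genes). Their median log2 fold change was -1.21. By log2 fold change the deepest were mt-Nd3 (-2.32, adjusted p = 0.019), mt-Atp8 (-2.25, adjusted p = 0.02) and mt-Co3 (-1.60, adjusted p = 0.012). mt-Nd3 had 140.3, 36.8 and 53.1 FPKM under Ad-Con and 10.3, 12.97 and 16.3 under Ad-PDK4, and without Ad-PDK4 replicate 1 or 2 its adjusted p was 0.066 or 0.0526. mt-Atp8 likewise had adjusted p-values of up to 0.062 when 1 library was left out. Its row rested on 18, 31 and 65 reads under Ad-Con and 8, 5 and 8 under Ad-PDK4. The means of mt-Nd3, mt-Atp8 and mt-Co3 under Ad-Con were 76.8, 10.2 and 37.4 FPKM, against 6991 for mt-Co1 and 3693 for mt-Cytb. Why these rows were so much lower was not tested, so the sizes of their falls are uncertain. mt-Cytb and mt-Co1 had log2 fold changes of -1.59 (adjusted p = 4.7e-05) and -0.72 (adjusted p = 4.9e-04). The large ribosomal RNA mt-Rnr2 went from 551.6 ± 41.3 to 245.4 ± 44.0 FPKM, and the small one, mt-Rnr1, which TFB1M methylates, from 358.8 ± 33.9 to 272.2 ± 52.2 FPKM (log2 fold change -0.41, adjusted p = 0.066). The fold changes of the 10 nuclear genes (-0.53 to 0.86) were thus smaller than the median fall of these RNAs. Rescaling the FPKM of each library by their sum over genes outside the mitochondrial chromosome moved no call of the 10 genes.

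Pnpt1 is known as a gene that interferon induces, and the enzyme limits the escape of mitochondrial double-stranded RNA. All 20 interferon-stimulated genes in the list were higher, as were 21.8% of all tested genes. Their median log2 fold change was 2.90, with values of 1.51 or more, against 0.86 for Pnpt1. Ifi44 rose by 6.52, Rsad2 by 5.52 and Ifit1 by 5.05 on the log2 scale, the last from 12.5 ± 3.65 to 403.0 ± 42.0 FPKM. Of 8 genes for the cytosolic sensing of double-stranded RNA, 7 were higher (87.5%), but 4 of them (Ifih1, Ddx58, Eif2ak2 and Adar) are also among the 20 interferon-stimulated genes. Zbp1, a nucleic acid sensor, rose by 6.25, Dhx58 by 3.92 and Ifih1, the sensor MDA5, by 2.77 from 2.84 ± 0.154 to 19.9 ± 1.40 FPKM. Mavs, the adaptor that relays the signal at the mitochondrial surface, had a log2 fold change of 0.09 (adjusted p = 0.25). The relation between the interferon genes and Pnpt1 was not tested.

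**Figure D4:**
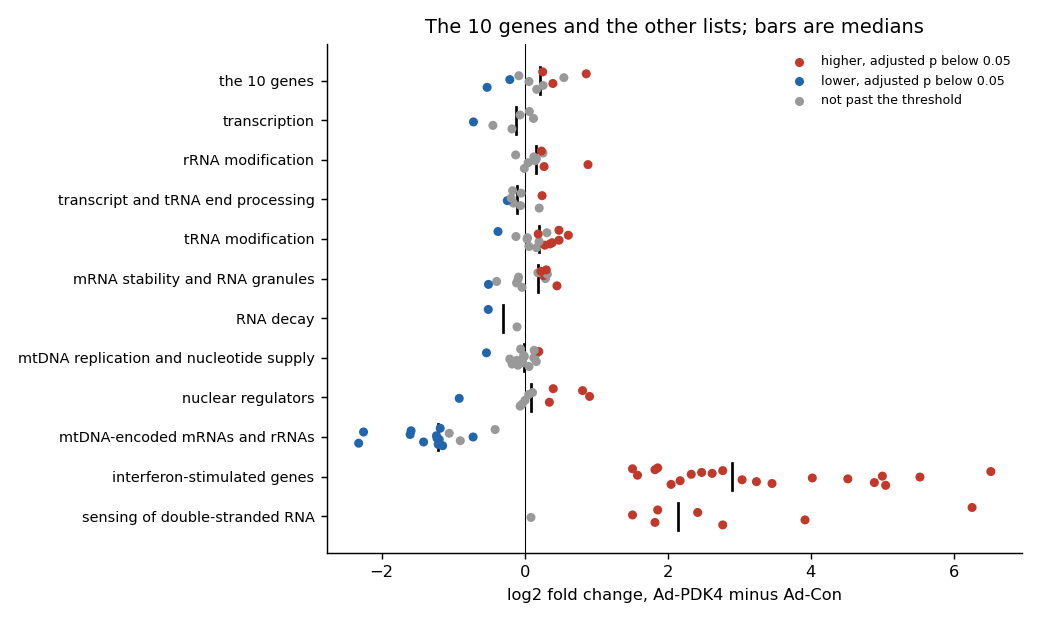
Log2 fold change of the 10 genes and of the other tested genes of each list, 1 point per gene, coloured by call, with a black bar at the list's median. The 10 genes and the lists of nuclear mitochondrial genes lie on both sides of 0, apart from the 2 other RNA decay genes, which lie below it. The mtDNA-encoded RNAs lie below 0, and the interferon-stimulated genes lie at 1.51 or above.

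**Figure D5:**
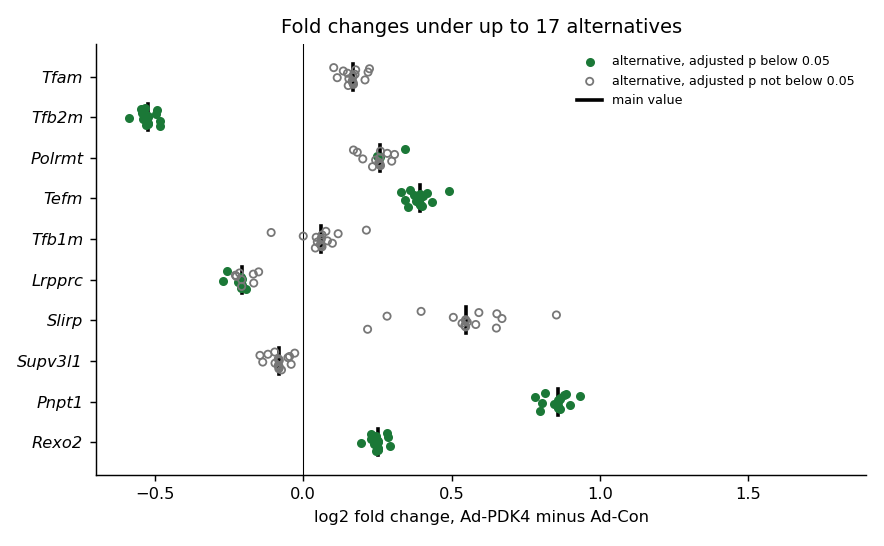
Log2 fold change of each gene under up to 17 other ways of processing (points, filled green where the adjusted p was below 0.05) beside the main value (black bar). Pnpt1, Tefm, Rexo2 and Tfb2m are filled throughout, Lrpprc in 9 of 17, Polrmt in 3 of 17, and the points of Tfb1m fall on both sides of 0.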

How the data were processed

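RNA-seq libraries of VSMCs (3 Ad-Con, 3 Ad-PDK4) were grouped by their treatment labels. The authors deposited FPKM values, 1 column for each library. The submitters' notes name CASAVA 1.8, fastp, HISAT2 2.0.5, featureCounts 1.5.0-p3 and DESeq2 1.20.0. They also name GRCm39, but 98.3% of 54495 gene identifiers had GENCODE M21 (GRCm38) coordinates, which are used here. Strand setting was not stated. The labels and the methods name different library kits, and which was used was not settled. FPKM times gene length gave whole reads for 100% of values within 0.01 reads, so the totals could be recovered. The size behind the FPKM was already a median-of-ratios scaled one. No replicate pair agreed within counting noise (chi-square per degree of freedom 3.99 to 10.9).

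The test used log2(FPKM + 0.1) of every gene averaging 0.5 FPKM or more (limma 3.58.1, run in R 4.3.3, eBayes with trend and robust, no covariate) and Benjamini-Hochberg adjustment, and fold changes are on that scale. The test was tried on simulated data first. Overlaps and shared 50-base words came from GENCODE M21, promoter sequences from RefSeq (GRCm38.p6). In each other list the 3 largest rises and 3 largest falls at an adjusted p below 0.05 were named. Lactb2, Nrf1, Gabpa, Gabpb1, Gabpb2, Mavs, mt-Co1, mt-Cytb, mt-Rnr1, mt-Rnr2, Gm1818, Snw1 and the cell type markers were named after their values were seen. The gene set, lists and motifs were chosen with earlier results of these data known. The 17 alternatives were pseudocounts of 1 and 0.01, no filter, a mean of at least 5 FPKM, median of ratios, TPM, no mitochondrial chromosome, quantile normalization, no trend or robust moderation, a replicate block, limma-voom on the recovered reads, and leaving out each library.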

Additional observations from a re-analysis of the deposited data

How the results depend on the processing

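The number of the 10 genes that were higher was 3 or 4 under every alternative, the fourth being Polrmt. The number that were lower was 2 in the main fit and 1 with no filter, with TPM and without trend or robust moderation, and 1 to 2 with 1 library left out. In each of these cases Lrpprc was the gene that no longer passed. Of 168 gene values under the alternatives, 155 kept direction and call, 8 (all Lrpprc) lost the call, 3 (all Polrmt) gained it, and 2 changed sign, both for Tfb1m. Its value was -0.0002 when the first Ad-Con library was left out and -0.1085 when the first Ad-PDK4 library was, and it ranged from -0.1085 to 0.2128 over the 6 libraries left out in turn. The median of the 10 ranged from 0.155 (quantile normalization) to 0.251 (TPM). Over all tested genes, 2162 to 3367 were higher and 1881 to 3149 lower, and limma-voom on the recovered reads gave 3138 and 3149. Of 30 other named genes, 18 passed under every alternative that could be fitted and none changed sign. The numbers of the replicates did not pair the libraries: the correlations of deviations between same-numbered libraries were -0.046, -0.031 and -0.001. With the replicate number as a block, 2759 genes were higher and 2626 lower, and of the 10 genes 4 were higher and 2 lower, with Polrmt at an adjusted p of 0.033. The 7 ratio differences were recomputed with each library left out and with a pseudocount of 0.1 on both genes, and moved by less than their replicate spread. The log2 difference of Lrpprc to Slirp ranged from -1.207 to -0.566. Tfb1m and Slirp were not tested at a mean of 5 FPKM. Slirp and Tfb1m had 15 to 104 reads per library. Their 95% intervals ran from -0.28 to 1.37 and from -0.39 to 0.51, so differences within these remain possible.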
